A study of Rattus norvegicus with 30 samples.

Results

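The regions described here are gene bodies that held reads in every brain region examined after traumatic brain injury (TBI) or sham operation. A gene body was included when its counts, summed over the 10 libraries of a brain region, reached 20 or more in all 3 of the cortex around the lesion, the hippocampus and the thalamus of the injured side. Of 26404 gene body rows, 2881 (10.9%) met this rule, and they are called the counted gene bodies below. Of these, 1547 (53.7%) were joined by their identifier to a single set of promoter counts, 1307 had no promoter row in the tables used here, and 27 had several differing sets and were not joined. Since the gene bodies were chosen by their counts, their presence in all 3 brain regions is not a result.

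The animals were adult male Sprague-Dawley rats. TBI was induced by lateral fluid-percussion, a pressure pulse of fluid onto the intact dura through an opening in the left parietal skull, and the sham-operated controls had the same anaesthesia and surgery without the pulse. Each group had 5 rats (rats 1 to 5 sham, rats 6 to 10 TBI), and each rat gave 3 tissue samples at 3 months after the operation, which made 30 libraries. The cortex was perilesional, the other samples ipsilateral, and the hippocampal sample was described in the labels as dentate gyrus with the adjoining CA3 subfields. All samples were bulk tissue, so that a change in the mix of cells and a change within cells cannot be told apart.

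DNA methylation in mammals is found mainly at cytosines followed by guanine (CpG sites). CpG-rich promoters of active genes usually carry little of it, whereas the transcribed part of a gene, the gene body, is commonly methylated. MBD-seq captures DNA fragments through a methyl-CpG-binding domain and counts the reads that fall on a region, so that a count rises with methylation, with the number of CpG sites in the region, with its length and with its number of copies in the genome. Its counts are relative amounts of captured DNA and not methylation percentages.

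The gene body values were small. Gene body counts totalled 27209 to 161737 per library against 1430875 to 4227800 for promoters, and the counted gene bodies held 67.7 to 91.4% of the gene body counts. Every one of the 22886 gene body rows with a count in any of the 30 libraries had an exon row with identical counts in all 30 libraries, including all 2881 counted gene bodies, of which 2609 matched 1 exon row and 272 matched 2 or more. The gene body values below are therefore numerically those of an exon row and are not read as counts over whole gene bodies. The name gene body is kept for them as deposited. Some rows also repeated each other. The 2881 counted gene bodies held 2728 distinct patterns of counts, and 259 of them shared their counts with at least 1 other.

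Several libraries stood apart before any comparison. By Pearson correlation of log2(CPM + 1) over the counted gene bodies (CPM being the counts of a region scaled to 1e6 promoter plus gene body counts of its library), the cortex libraries of rat 4 (sham) and rat 6 (TBI) were closer to the mean hippocampal profile (r = 0.881 and 0.852) than to the mean of the other cortex libraries (0.743 and 0.749). The hippocampal library of rat 5 (sham) was closer to the cortex (0.808 against 0.693 for its own brain region), and its joined promoters and those of the 2 cortex libraries were placed in the same way. The thalamic library of rat 6 (TBI) was closest to its own brain region by gene bodies (0.865, against 0.835 for the hippocampus) but closest to the hippocampus by promoters (0.937 against 0.911). The cortex libraries of rat 1 (sham) and rat 10 (TBI) stood apart by a small set of genes described below. The study's methods place the thalamic libraries on another sequencer than the rest while the labels name 1 sequencer for all, so that a difference of the thalamus from another brain region and a difference of sequencing run cannot be told apart.

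Since gene body and promoter CPM of a library share 1 denominator, their ratio is the ratio of the counts. In the cortex the median counted gene body had 1.65 CPM (quartiles 1.25 and 2.43). The hippocampal median was 2.81 CPM (1.87 and 4.44) and the thalamic median 2.28 CPM (1.69 and 3.00). These levels rested on a median of 3.6, 5.6 and 7.8 counts per library. The hippocampus had the highest gene body CPM for 1929 of the 2881, the thalamus for 807 and the cortex for 145. These CPM values rest on scaling by promoter plus gene body totals. With that scaling the median log2 difference of the counted gene bodies between hippocampus and cortex was 0.80. With another scaling of the libraries (DESeq2) it was -0.04. The order of hippocampus and cortex by CPM therefore depends on the scaling, and no direction is drawn from it.

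The promoter counts of the same genes were far higher. Neither kind of count was scaled to the length or the CpG sites of its region. The gap between them therefore does not give a difference in methylation level. The median promoter of the 1547 joined genes had 54.8 CPM (cortex), 61.5 CPM (hippocampus) and 55.7 CPM (thalamus), which was above the 27.3, 19.5 and 27.4 CPM of the 18211 other promoter identifiers. The rule used gene body counts alone, and this difference between promoters is given as a description with no test. As a percentage of its promoter count, the median gene body count was 3.04 for cortex, 4.82 for hippocampus and 4.12 for thalamus. In the cortex, 5 and 95% of the genes lay below 1.15 and 9.47%, in the hippocampus below 1.20 and 15.3%, and in the thalamus below 1.5 and 13.1%. For 1542 of the 1547 genes the gene body count did not exceed the promoter count in any of the 30 libraries.

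**Figure D1:**
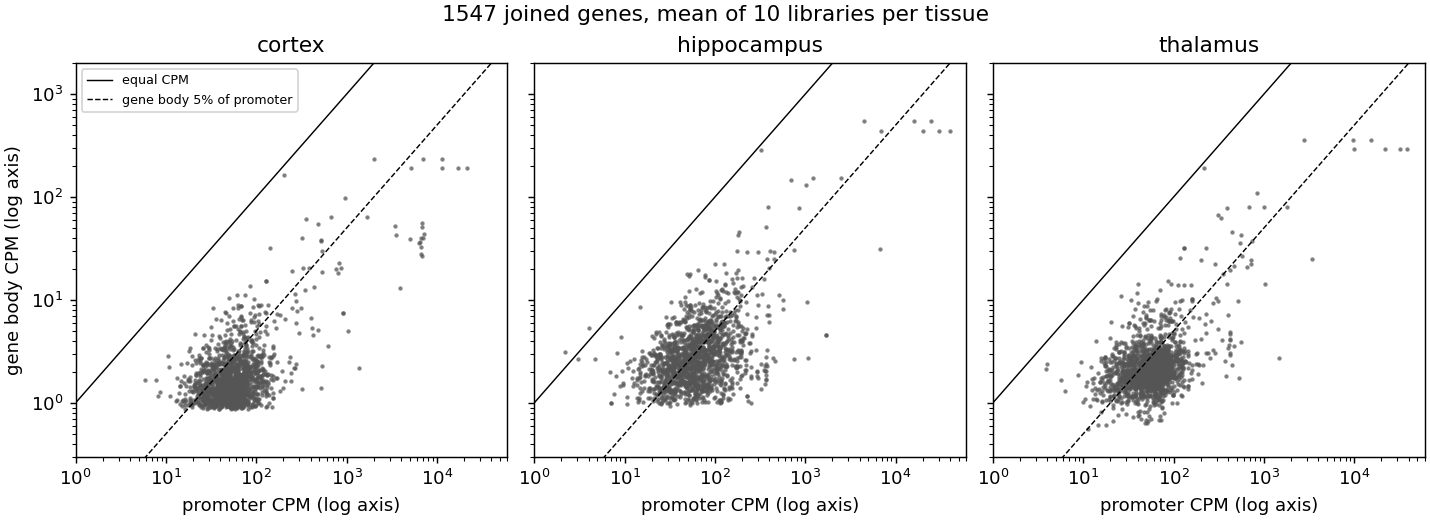
Mean gene body CPM (vertical, log scale) against mean promoter CPM (horizontal, log scale) of the 1547 joined genes over the 10 libraries of each brain region, 1 point per gene. All points but 2 (ENSRNOG00000015976 and ENSRNOG00000004846, both in the hippocampus) lie below equality, with a median gene body count of 3.04% (cortex), 4.82% (hippocampus) and 4.12% (thalamus) of the promoter count, and the rank correlation is 0.32 to 0.37.

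Genes with a high promoter count did not closely follow those with a high gene body count. Across the 1547 genes, Spearman's rho between gene body and promoter CPM was 0.32 for cortex, 0.37 for hippocampus and 0.34 for thalamus, and in single libraries it ranged from 0.21 to 0.44. Genes are not independent replicates and both values come from the same libraries, so these correlations are a description. The order of genes was more alike between brain regions than between the 2 kinds of region. For gene bodies rho was 0.67 to 0.73 between pairs of brain regions, for promoters 0.85 to 0.95, and for the gene body count as a percentage of the promoter count 0.81 to 0.88. A percentage above 5 in all 3 brain regions was found for 315 genes, above 10 for 51, above 20 for 6 and above 50 for 1, whereas 112 genes stayed under 2% and 16 under 1%.

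By the average log2 ratio over the 3 brain regions, the gene with the highest percentage was ENSRNOG00000030902, whose gene body held 80.5, 88.9 and 87.9% of its promoter count in the cortex, hippocampus and thalamus. Its gene body CPM in the cortex was 54.2, 191, 172, 363 and 160 in sham rats 1 to 5 and 281, 156, 134, 123 and 11.1 in TBI rats 6 to 10. The promoter CPM of ENSRNOG00000030902 in the same libraries was 86.9, 219, 214, 420 and 205 in sham rats and 328, 198, 174, 158 and 29.4 in TBI rats. Both regions were highest in rat 4 and lowest in rat 10, and the sham and TBI values overlapped. In the hippocampus 2 genes were higher. ENSRNOG00000015976 was at 142% from 61 gene body and 43 promoter counts over the 10 libraries, against 20.4% in the cortex and 29.9% in the thalamus. ENSRNOG00000004846, picked after its values were seen, had a gene body at 5.33 CPM and a promoter at 4.07 CPM in the hippocampus. At the other end, the gene body of ENSRNOG00000011940 held 0.16, 0.35 and 0.20% of its promoter count, with a promoter at 1356, 751 and 1456 CPM in these brain regions.

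Gene body counts were concentrated in few rows. The 20 counted gene bodies with the most counts held 10.4 to 42.1% of the counts of all 2881 per library of the cortex, and the hippocampal libraries ranged from 26.0 to 47.1% and the thalamic ones from 25.3 to 39.9%. These 20 rows were only 7 distinct patterns of counts, since 17 of them shared their counts with another row, and 7 of the 20 were joined to a promoter. The highest was ENSRNOG00000050259, with 479 (cortex), 975 (hippocampus) and 739 CPM (thalamus), which was not joined to a promoter and was picked after its values were seen.

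Among the joined genes the highest gene body was that of ENSRNOG00000046600, which shared its gene body counts with 2 further genes. In the cortex its gene body CPM was 93.0, 244, 223, 536 and 189 in sham rats and 538, 161, 174, 124 and 55.1 in TBI rats. In the hippocampus the gene body CPM of ENSRNOG00000046600 was 680, 432, 743, 784 and 237 in sham rats and 565, 495, 609, 337 and 642 in TBI rats. In the cortex the libraries of rats 4 and 6 were the high ones, in the hippocampus that of rat 5 was the lowest, and in each brain region the sham and TBI values overlapped. The 3 genes had the same gene body counts but differing promoters, at 1996 to 11296 CPM (cortex), 4485 to 24860 CPM (hippocampus) and 2771 to 15330 CPM (thalamus). Reads that match several copies of a sequence could be shared among such rows, and how the counting treated them is not given in the sources used here.

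The gene body of ENSRNOG00000046059 shared its counts with those of 3 further genes. Its gene body CPM in the thalamus was 393, 254, 167, 148 and 161 in sham rats and 930, 275, 150, 105 and 345 in TBI rats. In the hippocampus ENSRNOG00000046059 had 1020, 330, 331, 399 and 99.9 CPM in sham rats and 787, 281, 292, 224 and 586 CPM in TBI rats. In the cortex the gene body of ENSRNOG00000046059 had 120, 173, 119, 267 and 84.5 CPM in sham rats and 859, 84.4, 84.4, 61.7 and 45.5 CPM in TBI rats. Rat 6 had the highest value of the TBI group in all 3 brain regions, and sham and TBI values overlapped in each.

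A set of genes was high in the cortex, above all in the libraries of rat 1 and rat 10. It was found after the values were seen, by correlation across the 30 libraries with ENSRNOG00000030700, and is therefore described without a test. The promoters of 13 joined genes followed that of ENSRNOG00000030700 with r above 0.99, while the next gene reached 0.81, and the gene bodies of 34 of the 2881 followed its gene body with r above 0.9. All 13 were among the 34, and the other 21 were not joined. None of the 34 shared its counts with another counted gene body. The next gene body reached r = 0.899, so that the limit of the set is not sharp.

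The 34 gene bodies held 36.7% of the counts of the counted gene bodies in the cortex library of rat 1 and 66.7% in that of rat 10. In the other cortex libraries they held 0.755 to 8.30%, in the hippocampus 0.110 to 1.61% and in the thalamus 0.123 to 1.85%. The 13 promoters held 54.9 and 84.3% of the joined promoter counts in the libraries of rats 1 and 10 and 3.64 to 21.1% in the other cortex libraries. The mean promoter CPM of the 13 was 3414 to 7138 for cortex, 177 to 375 for hippocampus and 223 to 464 for thalamus. Rat 1 was a sham rat and rat 10 a TBI rat, so the high values were not confined to either group.

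The gene body of ENSRNOG00000030700 in the cortex had 118, 10.5, 14.7, 8.61 and 15.3 CPM in sham rats and 9.65, 9.10, 13.8, 30.1 and 330.0 CPM in TBI rats. Its promoter had 16619, 1484, 1843, 808 and 2005 CPM in sham rats and 1118, 1349, 2142, 3620 and 37633 CPM in TBI rats. Gene body and promoter of ENSRNOG00000030700 were thus highest in the same 2 libraries, and sham and TBI values overlapped. In the thalamus the gene body of ENSRNOG00000030700 ranged from 0.909 to 9.30 CPM and in the hippocampus from 0.574 to 9.94 CPM.

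**Figure D2:**
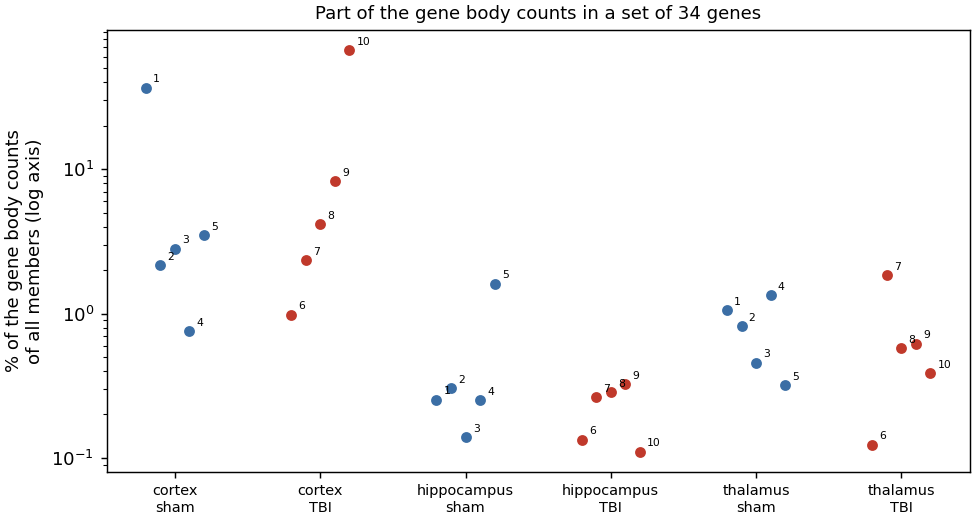
Percentage of the counts of the 2881 counted gene bodies held by the 34 gene bodies that follow ENSRNOG00000030700 (vertical, %, log scale), 1 point per library, by brain region and by sham or TBI group. The cortex libraries of rat 1 (36.7%) and rat 10 (66.7%) stand above the other cortex libraries (0.755 to 8.30%).

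The spread between rats was wider for gene bodies than for promoters. Over the joined genes, the median coefficient of variation between the 5 sham libraries was 74.9% for gene bodies and 24.1% for promoters in the cortex, 55.2 and 21.6% in the hippocampus, and 44.0 and 14.4% in the thalamus. Counting error alone would give a median of 51.3, 44.7 and 38.9% for gene bodies and of 9.06, 9.15 and 7.53% for promoters. In the TBI libraries the gene body values were 84.2, 47.6 and 46.2% and the promoter values 35.6, 17.7 and 16.3%. At these depths a single gene body gave an imprecise value in any 1 library, while a promoter was counted with a smaller relative error.

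To compare TBI with sham over all joined genes at once, the gene body counts of the 1547 genes were expressed as a percentage of their gene body plus promoter counts in each library. In the cortex the percentage was 1.14, 2.74, 2.52, 3.85 and 2.31 in sham rats and 3.14, 2.43, 2.20, 2.05 and 0.723 in TBI rats. In the hippocampus it was 3.30, 3.06, 3.82, 4.11 and 2.35 in sham rats and 2.88, 4.11, 3.71, 3.84 and 3.08 in TBI rats. In the thalamus it was 2.11, 2.66, 3.29, 2.93 and 3.73 in sham rats and 3.08, 2.32, 3.15, 3.26 and 2.71 in TBI rats. The groups overlapped in every brain region, and the lowest cortex values belonged to rats 1 and 10.

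The mean percentage in the cortex was 2.51 ± 0.968 (SD, n = 5) in sham and 2.11 ± 0.880 (SD, n = 5) in TBI rats, a difference of -0.403 percentage points (exact two-sided permutation test, p = 0.516). In the hippocampus the means were 3.33 ± 0.687 and 3.52 ± 0.523 (SD, n = 5 each), a difference of 0.195 points (exact permutation p = 0.619). In the thalamus they were 2.95 ± 0.613 and 2.90 ± 0.388 (SD, n = 5 each), a difference of -0.0410 points (exact permutation p = 0.905). After Benjamini-Hochberg adjustment over the 3 brain regions each p was 0.905, so that no difference exceeded the spread between rats. Without the 13 genes of the cortex set the difference in the cortex was -0.331 points (exact permutation p = 0.516), and rats 1 and 10 still had the lowest values, at 1.60 and 1.44%. In the hippocampus the direction turned to -0.0509 points without the libraries that stood apart, and in the thalamus it turned to 0.0845 points when rows with the same counts were kept once.

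**Figure D3:**
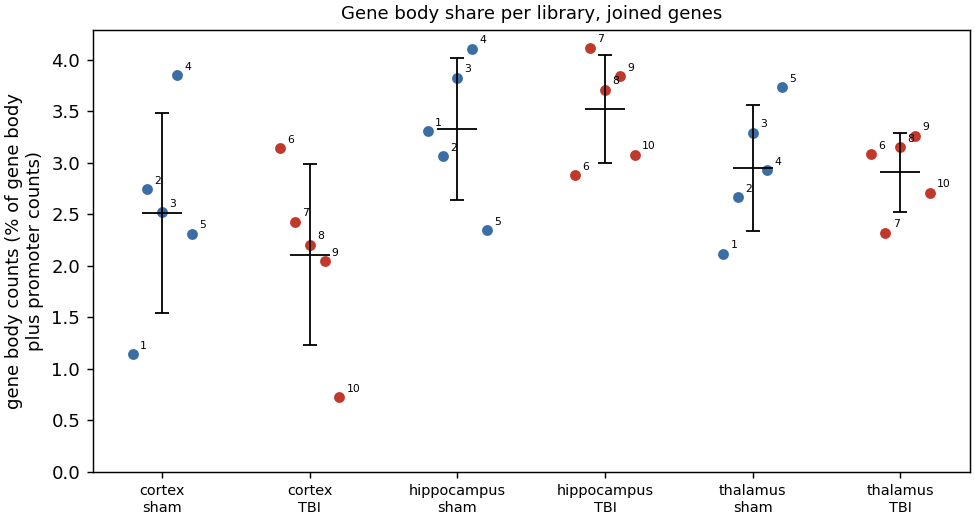
Gene body counts of the 1547 joined genes as a percentage of their gene body plus promoter counts (vertical, %), 1 point per library, by brain region and by sham or TBI group, with the group mean and SD. Sham and TBI libraries overlap in all 3 brain regions, with sham and TBI means of 2.51 and 2.11% (cortex), 3.33 and 3.52% (hippocampus) and 2.95 and 2.90% (thalamus).

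Between brain regions of the same rat, the percentage was higher in the hippocampus than in the cortex in 9 of 10 rats, by 1.12 ± 0.944 points (SD over rats). This difference was greatest in rat 10 (3.08 against 0.723%) and rat 1 (3.30 against 1.14%), whose cortex libraries were high in the set described above. It was smallest in rats 4, 5 and 6, each with a cortex or hippocampal library that stood apart by its profile. The percentage was higher in the thalamus than in the cortex in 6 of 10 rats (0.615 ± 0.879 points) and higher in the thalamus than in the hippocampus in 2 of 10 (-0.501 ± 0.862 points). The difference between brain regions did not differ detectably between sham and TBI rats. For hippocampus minus cortex it was 0.817 points in sham and 1.41 points in TBI rats (exact permutation p = 0.365), for thalamus minus cortex 0.434 and 0.796 points (exact permutation p = 0.587), and for thalamus minus hippocampus -0.383 and -0.619 points (exact permutation p = 0.714).

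Gene by gene, no counted gene body differed between TBI and sham. The test was edgeR's quasi-likelihood test on the counts of all gene bodies with 20 or more counts in the brain region, with Benjamini-Hochberg adjustment over all of them and a threshold of 0.05. It called 0 of the 2881 in each brain region, where it also called 0.0% of all gene bodies tested (3392 for cortex, 3548 for hippocampus and 6439 for thalamus), and DESeq2 called 0 as well. At an unadjusted p under 0.05 the cortex had 48 counted gene bodies (22 higher and 26 lower in TBI), the hippocampus 99 (36 and 63) and the thalamus 86 (59 and 27). These were 1.67, 3.44 and 2.99% of the counted gene bodies, near the 1.71, 3.41 and 2.72% of all gene bodies tested.

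The promoters of the joined genes gave the same count of 0 in edgeR's test (1543 of the 1547 were tested in the hippocampus) and in DESeq2, with 5, 29 and 9 at an unadjusted p under 0.05 in the cortex, hippocampus and thalamus, against 0.773, 2.85 and 0.904% of all promoters tested. Whether TBI changed a gene body by another fold than its promoter was tested as the interaction of region and group in 1 edgeR fit of both. This called 0 of the 1547 genes in each brain region, with 53, 51 and 56 at an unadjusted p under 0.05 against 3.64, 3.76 and 3.88% of all genes tested, and DESeq2 was not run on this interaction. With 5 rats a group and few counts per gene body, small differences were not detectable, and the examples below include large ones that did not pass. The absence of calls thus does not show that large differences in single gene bodies were absent.

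The gene bodies with the lowest unadjusted p among the joined genes are given as examples, and none passed the test. In the cortex the gene body of ENSRNOG00000027152 had 2.83, 4.29, 0.978, 8.61 and 3.17 CPM in sham rats and 2.32, 0.0, 0.987, 0.501 and 0.247 CPM in TBI rats. Its promoter had 32.3, 56.7, 41.6, 61.2 and 53.9 CPM in sham rats and 41.3, 50.5, 45.9, 41.1 and 17.5 CPM in TBI rats. The TBI values of the gene body were mostly lower but overlapped with sham, with a log2 difference of -1.93 (SE 0.62) and an edgeR adjusted p of 0.997. The promoter difference of ENSRNOG00000027152 was -0.28 on the log2 scale, and its gene body against promoter difference was -1.78 with an edgeR adjusted p of 1.00. In the same brain region ENSRNOG00000030731 had a gene body at 0.0, 0.477, 0.489, 0.478 and 0.0 CPM in sham rats and 2.70, 2.53, 0.494, 2.01 and 0.247 CPM in TBI rats, a log2 difference of 2.47 (SE 0.80), with an edgeR adjusted p of 0.997. All its sham values were at or near 0 and overlapped with that of rat 10. The gene body of ENSRNOG00000030731 held only 21 counts over all cortex libraries, just above the limit for a counted gene body. With such low sham values it reached that limit through its TBI counts. The size of its log2 difference is therefore not independent of the rule and rests on few counts.

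In the hippocampus the gene body of ENSRNOG00000042277 had 4.60, 2.56, 4.66, 4.07 and 0.497 CPM in sham rats and 5.74, 10.9, 8.74, 7.44 and 5.58 CPM in TBI rats. These groups did not overlap in a gene body that was picked for its low p, and the log2 difference was 1.12 (SE 0.35) with an edgeR adjusted p of 1.00. Its promoter was close between groups, with a log2 difference of 0.12. For ENSRNOG00000046403 the gene body had 2.87, 8.96, 14.9, 2.71 and 5.47 CPM in sham rats and 2.3, 2.04, 4.14, 0.0 and 1.99 CPM in TBI rats. The groups overlapped, and its log2 difference was -1.84 (SE 0.49) with an edgeR adjusted p of 1.00. The promoter of ENSRNOG00000046403 was at 35.2 to 143 CPM in sham and 34.4 to 52.4 CPM in TBI rats, a log2 difference of -0.80.

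In the thalamus the gene body of ENSRNOG00000036690 had 3.33, 3.91, 2.44, 4.39 and 3.94 CPM in sham rats and 1.14, 0.930, 1.59, 1.89 and 1.09 CPM in TBI rats. The groups did not overlap, and the log2 difference was -1.38 (SE 0.38) with an edgeR adjusted p of 1.00. The promoter of ENSRNOG00000036690 ranged from 53.3 to 74.8 CPM in sham and from 54.6 to 75.5 CPM in TBI rats, a log2 difference of 0.10. For ENSRNOG00000028690 the gene body had 1.51, 1.42, 2.75, 3.65 and 3.64 CPM in sham rats and 8.66, 3.72, 3.82, 4.87 and 4.91 CPM in TBI rats. The highest sham value lay just under the lowest TBI value, and the log2 difference was 1.06 (SE 0.35) with an edgeR adjusted p of 1.00.

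**Figure D4:**
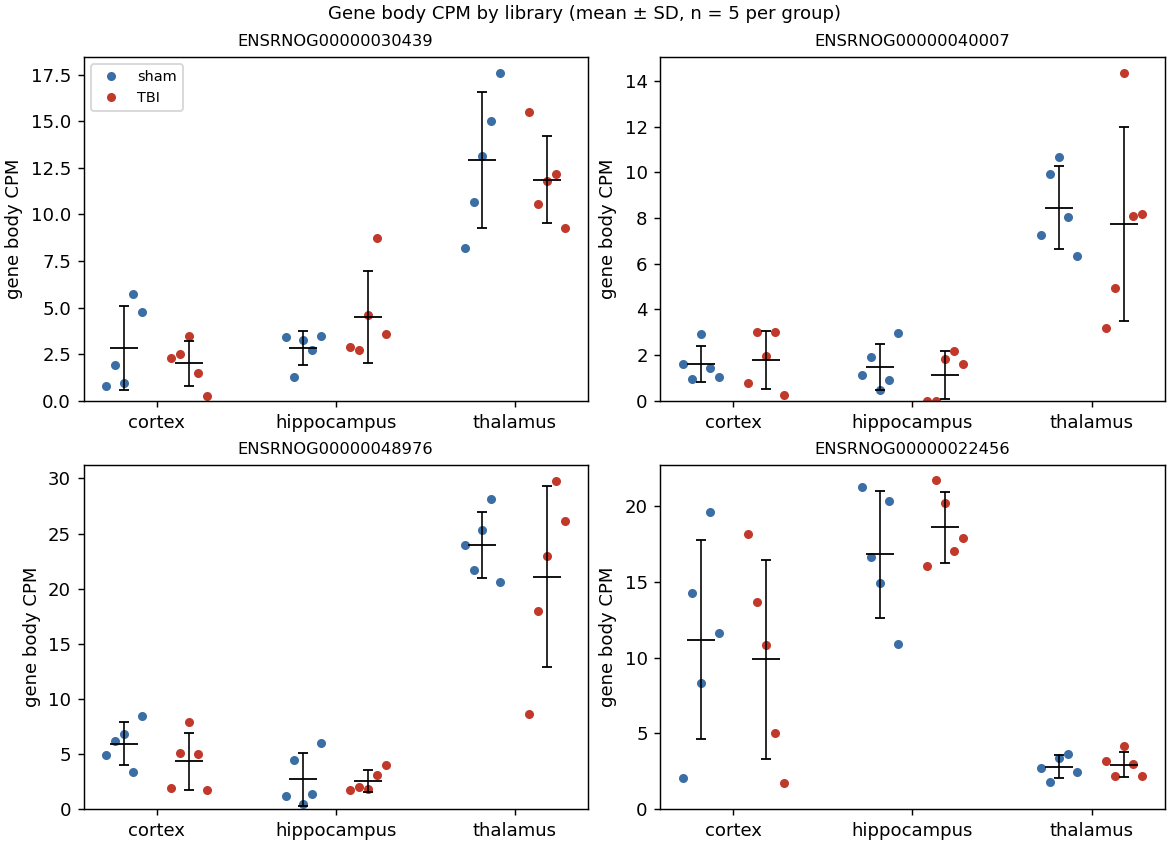
Gene body CPM (vertical) by brain region (horizontal) of named gene bodies, 1 panel per gene and 1 point per library, coloured by sham or TBI group, with the mean and SD of the 5 libraries. None of the differences between TBI and sham passed the adjusted threshold, while for example ENSRNOG00000022456 is at 10.9 to 21.7 CPM in the hippocampus and at 1.78 to 4.14 CPM in the thalamus.

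With the main settings, gene bodies were called between brain regions but not between TBI and sham. The fits differed in their number of libraries, so the counts of calls do not compare the sizes of these differences. All 30 libraries entered 1 fit for each kind of region, with a term for each brain region and group, and the differences are averages over sham and TBI rats. Since a gene body had to be counted in every brain region to enter, gene bodies found in 1 brain region alone are not among the 2881. The directions among all gene bodies tested are no yardstick for them, because 6439 of the 6537 gene bodies with 20 or more counts in at least 1 brain region reached them in the thalamus.

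Between hippocampus and cortex, 210 of the 2881 counted gene bodies passed the threshold, against 8.28% of all 6537 tested. Of these, 128 were higher and 82 lower in the hippocampus, with a median log2 difference of 0.30 over the 2881, and among all tested 2.28% were higher and 6.0% lower. The split depended on the scaling of the libraries. With libraries scaled by their gene body totals it was 83 higher and 80 lower, with promoter plus gene body totals 649 and 48 (median 0.80), with DESeq2 29 and 123 (median -0.04), with edgeR's own filter on low counts 37 and 118, and in sham rats alone 1 and 41. The count also rested on single rats, since it was 500 without rat 6 and 107 without rat 1, and on the cortex libraries of rats 1 and 10, without which it was 116. No direction of the counted gene bodies as a whole is given for this pair.

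Between thalamus and cortex, 193 of the 2881 passed the threshold, against 6.46% of all tested, of which 92 were higher and 101 lower in the thalamus (4.07 and 2.39% among all tested), with a median log2 difference of 0.04. With promoter plus gene body totals the split was 181 and 58. Between thalamus and hippocampus, 695 passed, against 34.8% of all tested, of which 173 were higher and 522 lower in the thalamus (25.6 and 9.21% among all tested), with a median of -0.21. With edgeR's own filter this split was 206 and 199, and with DESeq2 344 and 246. The thalamus gave the most counts per gene body, and its difference from the other brain regions cannot be told apart from the sequencing run.

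The promoters of the joined genes passed the threshold more often. They had a median of 120.6 (cortex), 121.8 (hippocampus) and 186.0 (thalamus) counts per library, against 3.6, 5.6 and 7.8 for counted gene bodies. The 2 rates of calls therefore do not compare how much the 2 kinds of region differed. Between hippocampus and cortex, 1132 of the 1547 promoters passed (1033 higher and 99 lower in the hippocampus), against 61.5% of the 19676 promoters tested (27.6% higher and 33.9% lower). Between thalamus and cortex 175 passed (114 and 61), against 18.8% (8.51 and 10.3%), and between thalamus and hippocampus 988 passed (117 higher and 871 lower in the thalamus), against 56.8% (30.7 and 26.1%). Scaling by promoter totals changed these counts to 701 (553 and 148), 81 (38 and 43) and 709 (220 and 489).

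Whether a gene body differed between brain regions by another fold than its own promoter was tested in 1 edgeR fit of both. Between hippocampus and cortex this was so for 32 of the 1547 genes (22 with a higher and 10 with a lower gene body relative to the promoter in the hippocampus), against 4.15% of the 3803 genes tested (1.08 and 3.08%). Between thalamus and cortex it was so for 48 genes (29 and 19), against 4.47% (3.13 and 1.34%), and between thalamus and hippocampus for 231 genes (117 and 114), against 26.9% (22.3 and 4.65%). The median log2 difference between hippocampus and cortex was 0.27 for gene bodies and 0.51 for promoters, between thalamus and cortex 0.02 and 0.06, and between thalamus and hippocampus -0.22 and -0.41. For most joined genes no difference between the change of gene body and promoter was found, which at these gene body counts does not show that they moved alike. Scaled by library totals alone, without TMM factors, the counts were 10 (7 and 3), 32 (17 and 15) and 140 (47 and 93).

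**Figure D5:**
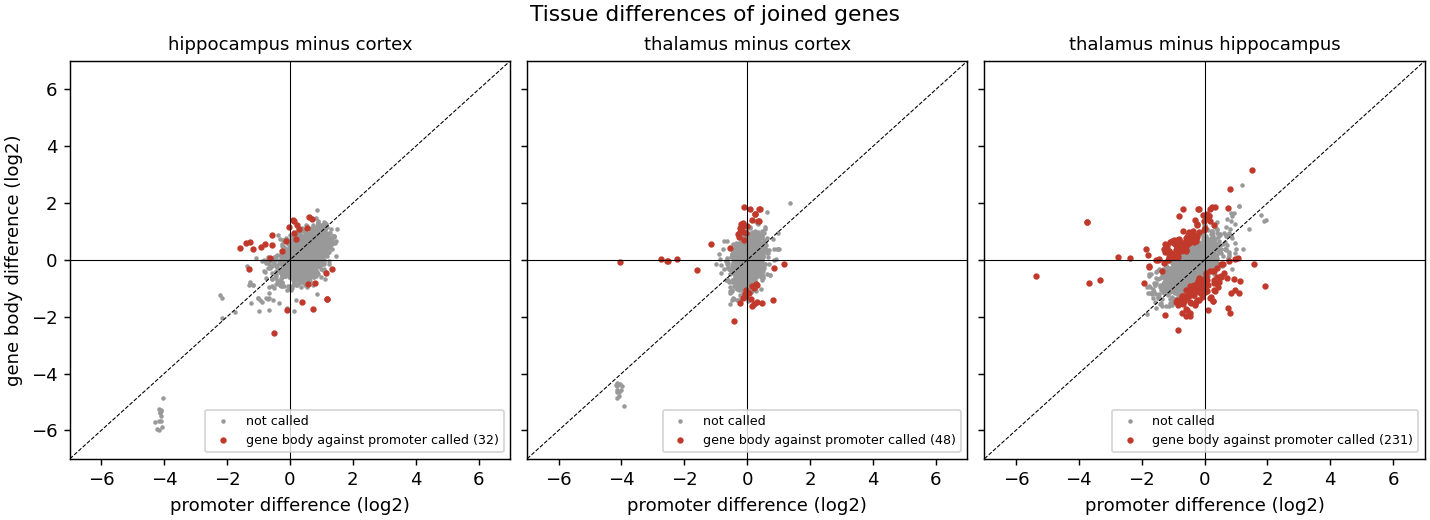
Log2 difference between brain regions of the gene body (vertical) against that of the promoter (horizontal) for the 1547 joined genes, 1 point per gene and 1 panel per pair of brain regions, with the genes whose 2 differences were not equal at an edgeR adjusted p under 0.05 marked. The marked genes number 32 (hippocampus minus cortex), 48 (thalamus minus cortex) and 231 (thalamus minus hippocampus).

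The genes named from here on were picked for the greatest gene body differences among the joined genes called between brain regions. The size and the separation of their gene body values are therefore no further support. The gene body of ENSRNOG00000040007 was high in the thalamus. It had 7.27, 9.95, 10.7, 8.04 and 6.36 CPM in sham and 3.19, 4.96, 14.3, 8.11 and 8.18 CPM in TBI rats of the thalamus. In the cortex the gene body of ENSRNOG00000040007 had 1.62, 0.953, 2.93, 1.43 and 1.06 CPM in sham and 0.772, 3.03, 1.97, 3.01 and 0.247 CPM in TBI rats. Every thalamic value lay above every cortex value, with a log2 difference of 1.85 (SE 0.35, edgeR adjusted p = 4.4e-05). Its promoter had 72.1 to 104 CPM in the thalamus of sham rats and 34.4 to 126 CPM in their cortex, with a log2 difference of -0.09 over all rats (edgeR adjusted p = 0.841). The gene body difference exceeded the promoter difference by 2.14 on the log2 scale (SE 0.53, edgeR adjusted p = 0.00869). Against the hippocampus, where the gene body of ENSRNOG00000040007 lay between 0.0 and 2.98 CPM, the gene body was higher in the thalamus by 2.64 and the promoter by 1.18. The 2 differences were not told apart there (1.35, edgeR adjusted p = 0.0805), except with the library as a block (adjusted p = 0.00415).

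ENSRNOG00000048976 had a gene body at 23.9, 21.7, 25.3, 28.1 and 20.6 CPM in sham and 8.66, 18.0, 22.9, 29.7 and 26.2 CPM in TBI rats of the thalamus. In the hippocampus the gene body of ENSRNOG00000048976 had 1.15, 4.48, 0.466, 1.36 and 5.96 CPM in sham and 1.72, 2.04, 1.84, 3.06 and 3.99 CPM in TBI rats. The lowest thalamic value, that of rat 6, was still above all hippocampal values. The log2 difference was 3.17 (SE 0.34) for the gene body and 1.52 for the promoter, and they differed by 1.53 (SE 0.44, edgeR adjusted p = 0.00733).

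The opposite was found for ENSRNOG00000022456, whose gene body was low in the thalamus. It had 21.3, 16.6, 14.9, 20.3 and 10.9 CPM in sham and 16.1, 21.7, 20.2, 17.1 and 17.9 CPM in TBI rats of the hippocampus. In the thalamus the gene body of ENSRNOG00000022456 had 2.72, 1.78, 3.36, 3.65 and 2.42 CPM in sham and 3.19, 2.17, 4.14, 2.97 and 2.18 CPM in TBI rats. No values overlapped, and the log2 difference was -2.48 (SE 0.27, edgeR adjusted p = 1.9e-11). The promoter of ENSRNOG00000022456 had 45.4 to 66.5 CPM in the hippocampus and 25.5 to 43.1 CPM in the thalamus, a smaller log2 difference of -0.85, and the gene body fell by 1.84 more than the promoter on the log2 scale (SE 0.23, edgeR adjusted p = 6.0e-09). Against the cortex its gene body was lower in the thalamus by the same order, with a log2 difference of -2.15 (SE 0.27), while hippocampus and cortex did not differ detectably (0.33, SE 0.25, edgeR adjusted p = 0.40). A further gene body of this kind was ENSRNOG00000031296, with a log2 difference of -1.98 for the gene body and -0.58 for the promoter between thalamus and hippocampus.

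ENSRNOG00000030439 had a gene body at 8.17, 10.7, 13.1, 15 and 17.6 CPM in sham and 15.5, 10.5, 11.8, 12.2 and 9.27 CPM in TBI rats of the thalamus. In the cortex ENSRNOG00000030439 had 0.809, 1.91, 0.978, 5.74 and 4.76 CPM in sham and 2.32, 2.53, 3.45, 1.5 and 0.247 CPM in TBI rats. All thalamic values lay above the cortex values. Here the promoter moved with the gene body, with log2 differences of 1.36 and 2.01 (SE 0.22 and 0.28), which were not told apart (0.75, edgeR adjusted p = 0.185).

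The gene body of ENSRNOG00000026910 was higher in the hippocampus than in the cortex. It had 2.87, 1.28, 7.46, 9.04 and 2.48 CPM in sham and 6.31, 7.47, 9.66, 4.37 and 4.38 CPM in TBI rats of the hippocampus. In the cortex ENSRNOG00000026910 had 0.404, 1.91, 2.44, 3.35 and 0.528 CPM in sham and 0.772, 1.01, 1.48, 0.501 and 0.0 CPM in TBI rats. The TBI values of the 2 brain regions did not overlap while the sham values did. The log2 difference over all rats was 1.77 (SE 0.37, edgeR adjusted p = 9.1e-04), and in sham rats alone it did not pass (edgeR adjusted p = 0.393). Its promoter was higher in the hippocampus by 0.86 on the log2 scale. The gene body exceeded it by 1.2 (edgeR adjusted p = 0.0576, and 0.0294 with the library as a block).

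Among the joined genes called, the gene bodies lowest in the hippocampus and thalamus relative to the cortex belonged to the set high in the cortex of rats 1 and 10. ENSRNOG00000029707 had a log2 difference of -6.00 (SE 0.69) between hippocampus and cortex, and its promoter one of -4.16. Without the cortex libraries of rats 1 and 10 the gene body difference was -3.10. Between thalamus and cortex the gene body difference of ENSRNOG00000030700 was -4.88 (SE 0.63) and was -1.92 without these 2 libraries. Gene body and promoter of ENSRNOG00000030700 were not told apart in their difference between thalamus and cortex (-0.41, SE 0.97, edgeR adjusted p = 0.865). These sizes thus rested in large part on 2 of the 30 libraries.

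At the limit of the rule, 143 of the counted gene bodies had exactly 20 counts in the brain region where they had fewest, and 129 gene bodies just missed it with 19. The promoters on both sides were alike. Joined genes with a smallest sum of 20 to 24 gene body counts (345 genes) had a median promoter of 44.9 (cortex), 45.7 (hippocampus) and 47.7 CPM (thalamus), and genes with 15 to 19 (414 genes) had 46.8, 43.8 and 51.5 CPM. Lacking a promoter row was more common among the counted gene bodies, at 45.4% of 2881 against 20.8% of the 23523 other gene body rows.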

How the data were processed

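MBD-seq libraries were made from the cortex, hippocampus and thalamus of 5 sham and 5 TBI rats (MethylMiner capture). The authors mapped reads to Rnor_5.0 with STAR and took counts for promoters, exons and gene bodies in R 3.1.0, per the labels and the study's methods, and deposited raw counts with no normalization. All 90 count columns of the 9 tables were used. Columns were matched to rats by tissue and rat number.

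Gene bodies with 20 or more counts in each tissue were joined by identifier to promoters. The members, lists and tests were chosen with earlier results of these data known. No table pairing the identifiers with gene symbols or sequences was used here, so the gene lists and markers of the plan could not be applied, and genes are named by identifier. Of the genes the naming rule gave, the text uses joined genes with the highest gene body level, with the highest or lowest ratio to the promoter, with the lowest p in a comparison of TBI with sham, and with the greatest difference in each direction among those called between tissues, at most 2 each way.

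Counts were tested in R 4.3.3 with edgeR 4.0.16 (quasi-likelihood, TMM, Benjamini-Hochberg threshold 0.05, gene bodies with 20 or more counts, promoters passing filterByExpr with minimum count 10 and minimum total 15) on the whole tables, separately per tissue for TBI and over 30 libraries for tissues. DESeq2 1.42.0, filterByExpr for gene bodies, library totals, no filter or at least 10 counts in every library, an exact test with 1 common dispersion, limits of 10 and 50 in place of 20, rows with equal counts kept once, sham rats alone, the rat as a block and leaving out each rat were alternatives. For gene body against promoter the block was the library. Leaving out libraries that stood apart and the set following ENSRNOG00000030700 was added after the data were seen. Percentages were compared by exact two-sided permutation over 252 assignments. In the promoter counts of the joined genes, replicate libraries differed by more than sampling noise, with a chi-square per degree of freedom of 3.48 or more. Gene body counts were not checked in this way. Equal rat numbers mark the same animal, so the tissues are paired. Over the counted gene bodies, the median correlation of their deviations was 0.022, 0.018 and -0.003, over 0.1 in 2, 1 and 1 of 10 rats. The pairing of promoters was not checked in this way. The scripts were checked on simulated counts. P-values for TBI against sham in gene bodies, promoters and percentages measure the spread between these rats. The main tissue fits took the libraries of a rat as independent. The main fits of gene body against promoter took the gene body and promoter counts of a library as independent. The p-values of these fits therefore do not measure the spread between rats alone.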

Additional observations from a re-analysis of the deposited data

Results flagged for a closer look

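Among 98 groups of 5 libraries whose single values are used in the report, 14 had 1 library set apart by more than Dixon's critical value of 0.71. Chance gives about 5% for independent groups of normally distributed values. These groups share libraries and include genes picked for high values or differences, so that rate is no yardstick for the 14. The flagged values are given without an explanation, and their causes were not tested.

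Of these groups, 8 belonged to ENSRNOG00000030700, the gene that leads the set high in the cortex. Its gene body was at 118 CPM in sham rat 1 (group median 14.7 CPM) and at 330.0 CPM in TBI rat 10 (median 13.8 CPM) in the cortex, at 9.94 CPM in sham rat 5 in the hippocampus (median 2.71 CPM) and at 9.30 CPM in TBI rat 7 in the thalamus (median 2.55 CPM). Its promoter was set apart in the same 4 libraries, at 16619 CPM (median 1843 CPM) and 37633 CPM (median 2142 CPM) in the cortex, at 974 CPM in the hippocampus (median 363 CPM) and at 986 CPM in the thalamus (median 317 CPM).

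The libraries of rat 6 accounted for 4 groups. Its cortex library had 537.7 CPM in the gene body of ENSRNOG00000046600 (median 161 CPM) and 859 CPM in that of ENSRNOG00000046059 (median 84.4 CPM). Its thalamic library had 8.66 CPM in the gene body of ENSRNOG00000028690 (median 4.87 CPM) and a low 20.7 CPM in the promoter of ENSRNOG00000040007 (median 90.2 CPM). The cortex library was closer to the hippocampal than to the cortex profile, and the thalamic library was so placed by promoters (0.937 against 0.911) but not by gene bodies (0.835 against 0.865).

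The promoter of ENSRNOG00000040007 was at 117 CPM in the hippocampal library of sham rat 5 (median 18.1 CPM), the library closer to the cortex profile. The promoter of ENSRNOG00000027152 was at 17.5 CPM in the cortex library of TBI rat 10 (median 41.3 CPM), where the set of ENSRNOG00000030700 held most of the joined promoter counts.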

How the results depend on the processing

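No alternative called a counted gene body, promoter or interaction between TBI and sham, except the exact test with 1 common dispersion, which called 1 gene body and 6 promoters in the hippocampus. The cause of the changes below was not tested. For gene bodies, hippocampus against cortex gave 210 calls with the main settings, 697 with promoter plus gene body totals, 42 in sham rats alone, 887 without the 4 libraries that stood apart, 116 without the cortex libraries of rats 1 and 10, and 107 to 500 when a rat was left out (107 without rat 1, 114 without rat 3, 500 without rat 6, 121 without rat 7 or rat 8, 109 without rat 9 and 139 without rat 10). Thalamus against cortex gave 193, and 126 in sham rats (165 to 201 without a rat), and thalamus against hippocampus gave 695, 405 with filterByExpr and 271 in sham rats (477 to 809 without a rat). For promoters, the counts of 1132, 175 and 988 became 701, 81 and 709 with library totals. In sham rats those of hippocampus and thalamus against cortex became 267 and 37, that of thalamus against cortex was 412 without the libraries that stood apart, and without a rat they were 1023 to 1236, 115 (without rat 1) to 194, and 857 to 1113. For gene body against promoter, the 32, 48 and 231 calls became 10, 32 and 140 with library totals, and 0, 13 and 66 in sham rats. Without the libraries that stood apart hippocampus against cortex gave 151 and thalamus against hippocampus 348, and without the cortex libraries of rats 1 and 10 the former gave 7. Without a rat these counts were 4 to 64, 35 to 48 and 161 to 262. The former was 4 without rat 1, 18 without rat 2, 6 without rat 3, 64 without rat 6, 14 without rat 7 or rat 9, 9 without rat 8 and 8 without rat 10. The libraries that stood apart were left out for their tissue profiles, so the higher counts without them are not independent of that choice.

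With the rat as a replicate block, gene bodies gave 296, 200 and 710 calls and promoters 1163, 210 and 1020. For gene body against promoter the block was the library, which gave 34, 71 and 258 calls (0 in each tissue for TBI). Beside the named genes with blocked values above, ENSRNOG00000029707 passed for gene body against promoter between hippocampus and cortex in the block alone (adjusted p = 0.00688, edgeR). Further named genes passed this test in the block. Among them were ENSRNOG00000046600 between hippocampus and cortex (edgeR adjusted p = 0.00859) and ENSRNOG00000046059 between thalamus and hippocampus (edgeR adjusted p = 2.84e-04).

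The difference of the gene body percentage between TBI and sham ranged from -0.745 to -0.0565 points in the cortex when a rat was left out, from -0.0509 to 0.389 in the hippocampus and from -0.249 to 0.155 in the thalamus. It reversed in the hippocampus without rat 5, which is also the library that stood apart (-0.0509), and in the thalamus without rat 3 (0.0457), rat 5 (0.155), rat 7 (0.105) or rat 10 (0.00816) and with repeated rows kept once (0.0845).

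Depth limits single gene bodies most, with a median of 3.6 to 7.8 counts per library. Rows with equal counts are not independent, capture counts are not methylation levels, and tissue and sequencing run cannot be told apart.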
